A study of Mus musculus with 19 samples.

Results

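Integrins and cadherins are the main families of surface receptors by which skeletal cells hold to their matrix and to one another, and 46 genes of these families were measured among the 18193 genes of the series. They comprise 16 integrin alpha subunits, 9 integrin beta subunits and 21 cadherins. Members were taken by gene symbol: every annotated symbol beginning with Itga or Itgb, without the binding proteins and the integrin-like Itgbl1, and every symbol made of Cdh and a number. This rule reads symbols and no expression level, though the families themselves were chosen with earlier results of these data known. Each gene is represented by its brightest probe set on average over the neonatal arrays, and levels are quantile-normalized log2 expression levels.

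The arrays carry RNA of sorted skeletal cells. They came from fore and hind limbs of a pooled litter of postnatal day 3 animals, wild-type by genotype and GFP-labeled according to the protocol. All sorted cells had been gated as negative for CD45, Ter119 and Tie2 and positive for integrin alpha V, so alpha V protein is a property that every population shares. Thy, 6C3 and CD105 then separated 6 populations of 3 arrays each. Those with Thy were Thy+6C3-CD105+ and its CD105- counterpart, those with 6C3 were Thy-6C3+CD105+ and its counterpart, and those with neither were Thy-6C3-CD105+ and its counterpart. A further array, labelled as Thy+6C3+CD105+ cells of wild-type adult mice, with sternum and ear as its source but limbs as its tissue, entered no test. The labels speak of a pooled litter and do not say whether the 3 arrays of a population came from separate litters or sorts, so p-values measure the spread between these arrays, which may be technical. Each comparison is a step, an antigen-positive population minus the antigen-negative population that shares its other antigens. Adjusted p-values are those of limma over all 18193 genes, changes carry the SE of the fit, and means carry the SD of 3 arrays. The number of arrays limits the precision.

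An integrin is a heterodimer of an alpha and a beta subunit that spans the membrane, binds matrix proteins outside the cell and is tied to actin inside it through talin, kindlin and vinculin. The alpha subunit largely sets the ligand: collagens, laminins, proteins with an RGD motif such as vitronectin and fibronectin, or receptors on white blood cells and endothelium. Classical cadherins bind the same cadherin on a neighbouring cell and are anchored to actin through catenins. In skeletal tissue, collagen-binding integrins are known from cartilage, and cadherin 11, also called OB-cadherin, from osteoblasts and mesenchyme.

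The genes of the sorted antigens were checked first. Thy1 lay between 9.99 and 10.47 on the 6 Thy+ arrays and between 4.96 and 5.95 on the Thy- arrays. Enpep, which encodes 6C3, lay between 10.69 and 11.24 on the 6C3+ arrays and between 6.20 and 8.83 on the 6C3- arrays. Eng, which encodes CD105, was between 8.17 and 8.83 on the CD105+ arrays and between 6.65 and 7.82 on all CD105- arrays but the third array of Thy+6C3-CD105-, which had 8.58. That array is called the doubtful CD105- array here, and several results that use it are given with and without it. Changes in the interactions, in genes outside the families and in marker lists are given only with it. Replicates 2 and 3 of Thy-6C3+CD105- carry titles that name Thy+ but a population field that names Thy-, and their Thy1 levels of 5.78 and 5.95 are those of Thy- cells. Tek, which encodes the gated Tie2, lay between 5.70 and 6.50 on the Thy+ arrays and between 4.68 and 5.12 on the Thy- arrays. The endothelial marker list averaged 5.05 to 5.85 on every neonatal array, and Ptprc, which encodes CD45, lay between 3.83 and 5.23, against a median gene mean of 6.76.

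Promoters are shown for 4 integrin genes that were called in different steps: Itga8 and Itga4, which were higher in the CD105+ than in the CD105- cells of the Thy+6C3- populations, Itga10, which fell in Thy+ cells, and Itga2b, which rose in the Thy step of CD105- cells. RefSeq promoters of build GRCm38.p6 were at hand for 29 of the 46 genes, and the 250 bases before the transcript start are printed 5′ to 3′ on the strand of the gene. Capitals mark a match, on either strand, to any of these motifs. TATAAA is the TATA box of many promoters. GGGCGG is the GC box that Sp factors bind. AGATAA is the core site of the GATA family. TGTGGT is the site that Runx factors bind. AACAAT is the site that Sox factors bind. The windows are chr2:12301945-12302194 on the minus strand, chr2:79255176-79255425 on the plus strand, chr3:96645334-96645583 on the plus strand and chr11:102469884-102470133 on the minus strand.
Itga8: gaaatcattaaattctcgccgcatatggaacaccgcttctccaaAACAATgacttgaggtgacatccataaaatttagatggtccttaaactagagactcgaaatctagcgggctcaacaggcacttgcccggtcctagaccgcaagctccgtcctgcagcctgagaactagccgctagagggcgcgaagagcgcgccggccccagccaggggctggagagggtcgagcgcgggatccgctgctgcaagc
Itga4: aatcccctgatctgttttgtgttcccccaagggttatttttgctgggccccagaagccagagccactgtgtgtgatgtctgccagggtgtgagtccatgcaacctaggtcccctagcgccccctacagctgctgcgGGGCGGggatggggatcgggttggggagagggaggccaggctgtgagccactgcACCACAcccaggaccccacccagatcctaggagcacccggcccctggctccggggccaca
Itga10: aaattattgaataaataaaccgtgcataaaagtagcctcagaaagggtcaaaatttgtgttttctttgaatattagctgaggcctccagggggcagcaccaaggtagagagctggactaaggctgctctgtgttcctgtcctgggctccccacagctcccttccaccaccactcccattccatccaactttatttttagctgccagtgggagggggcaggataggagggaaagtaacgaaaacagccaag
Itga2b: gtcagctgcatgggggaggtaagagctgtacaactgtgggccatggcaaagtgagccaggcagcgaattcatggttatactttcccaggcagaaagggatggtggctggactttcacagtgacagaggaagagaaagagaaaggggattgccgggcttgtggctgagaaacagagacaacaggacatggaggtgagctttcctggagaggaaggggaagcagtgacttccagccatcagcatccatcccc
The Itga8 window held 18 CpG dinucleotides at 56.4% GC, and the Itga4 window held 6 at 64% GC. The Itga10 and Itga2b windows held 2 CpG each, at 48% and 54% GC. Over 32851 promoters the medians were 6 CpG and 52.4% GC, so the Itga8 window is CpG-rich and those of Itga10 and Itga2b are CpG-poor. Itga8 has 1 AACAAT, which 9.42% of all promoters hold, and Itga4 has 1 GGGCGG and, on the reverse strand, 1 TGTGGT, which 32.7% and 14% of promoters hold. Neither the Itga10 nor the Itga2b window has any of these motifs. The matches describe the sequence and were not linked to any binding.

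The families spanned nearly the whole range of the arrays. Only 14 of the 46 genes had a mean above the median gene, and 23 lay below the median gene mean on every neonatal array. The brightest were Itgb5, with a mean level of 11.05 over the 18 arrays, and its partner Itgav, with 10.92, above 96.2% and 95.7% of all genes. Alpha V and beta 5 form a vitronectin receptor. Cdh11 followed at 10.48, then Itgb1, the common partner of collagen- and laminin-binding alpha subunits, at 9.95, and Itga6, a laminin-binding subunit, at 9.46. At the other end stood Cdh18 at 3.26 and Cdh1, the epithelial E-cadherin, at 3.52. These are levels of different probe sets, whose brightness also depends on the probe, so their order is a description only.

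**Figure D1:**
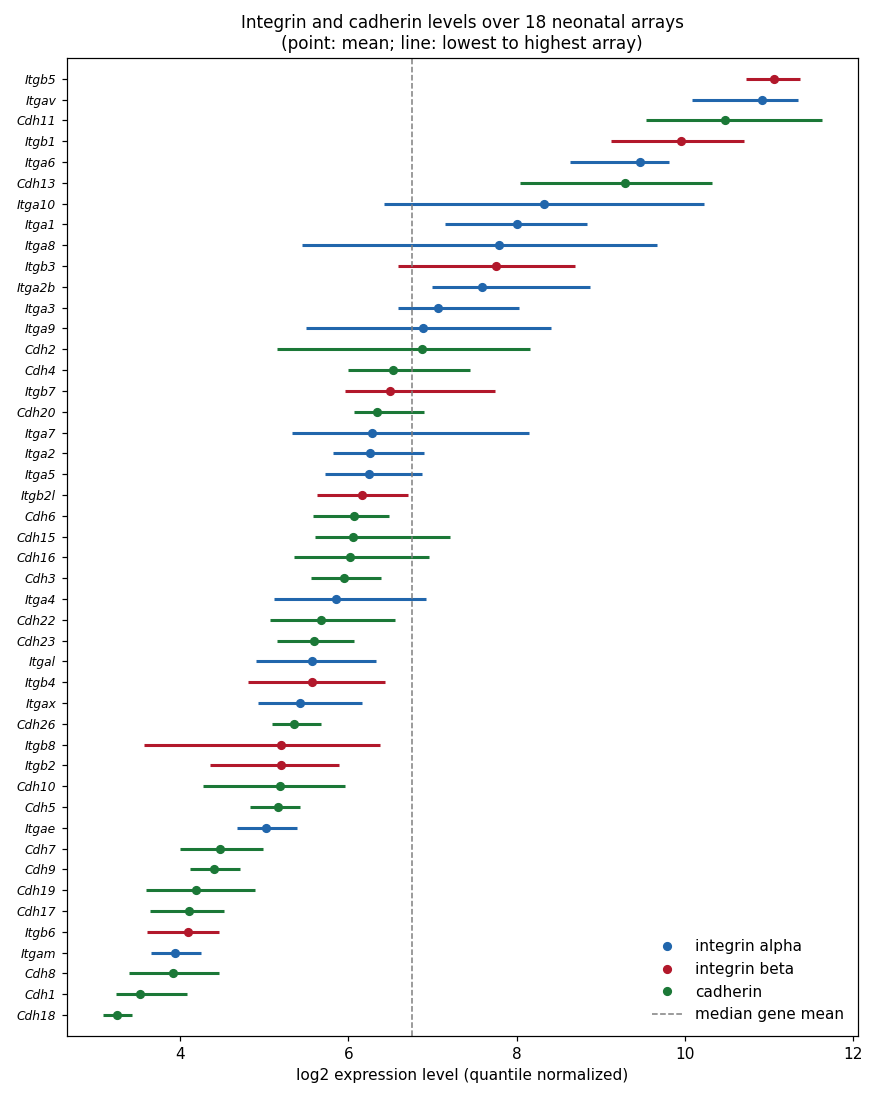
Mean log2 expression level of the 46 integrin and cadherin genes over the 18 neonatal arrays (point), with a line reaching to the lowest and highest array and a dashed line at the median gene mean of 6.76. Alpha subunits are blue, beta subunits red and cadherins green. Itgb5, Itgav, Cdh11 and Itgb1 lead, Itga8 has one of the longest lines, and 23 genes lie wholly left of the dashed line.

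The gated subunit and its 2 brightest partners did not pass the test over the populations. Population means of Itgav lay within 0.60 of each other, those of Itgb1 within 0.67 and those of Itgb5 within 0.41, and the F-test over the 6 populations gave adjusted p-values of 0.458, 0.622 and 0.172. Another partner gene, Itgb3, did pass, with population means spread over 1.37 (adjusted p = 0.000857). The sort selected for alpha V protein, so the narrow range of the Itgav probe set used describes gated cells. Dimmer Itgav probe sets disagreed in the Thy step of CD105- cells. One with a mean of 6.04 gave -0.997 and passed in limma among all probe sets (adjusted p = 0.0249). Another with a mean of 5.74 gave 0.65 and did not pass.

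Differences among the populations were found in 10 of the 46 genes, 21.7% of them, against 10.1% of all genes past the same F-test. The 10 were 6 alpha subunits (Itga8, Itga10, Itga7, Itga4, Itga2b and Itga2), the beta subunit Itgb3, and the cadherins Cdh13, Cdh11 and Cdh19. Among the 14 genes above the median gene, 6 passed, against 14.4% of all genes in that range, and among the 32 below it 4 passed, against 5.9%. At an unadjusted p under 0.05 in the same F-test, 15 of the genes passed. The share of all genes at an unadjusted p under 0.05 is not given here or below, so such counts have no background. The F-test calls of Itga2 and Itga4 lie near the threshold (adjusted p = 0.0423 and 0.0427) and were lost in 19 and 14 of 26 other settings, with adjusted p between 0.0109 and 0.0984 for Itga2 and between 0.000931 and 0.166 for Itga4. Those of Itga10 and Cdh11 were lost in 4 and 2 of 27 other settings, each on leaving out 1 array. In bulk RNA of sorted cells, a higher level in more cells and a higher level per cell cannot be told apart, which holds for every result here.

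**Figure D2:**
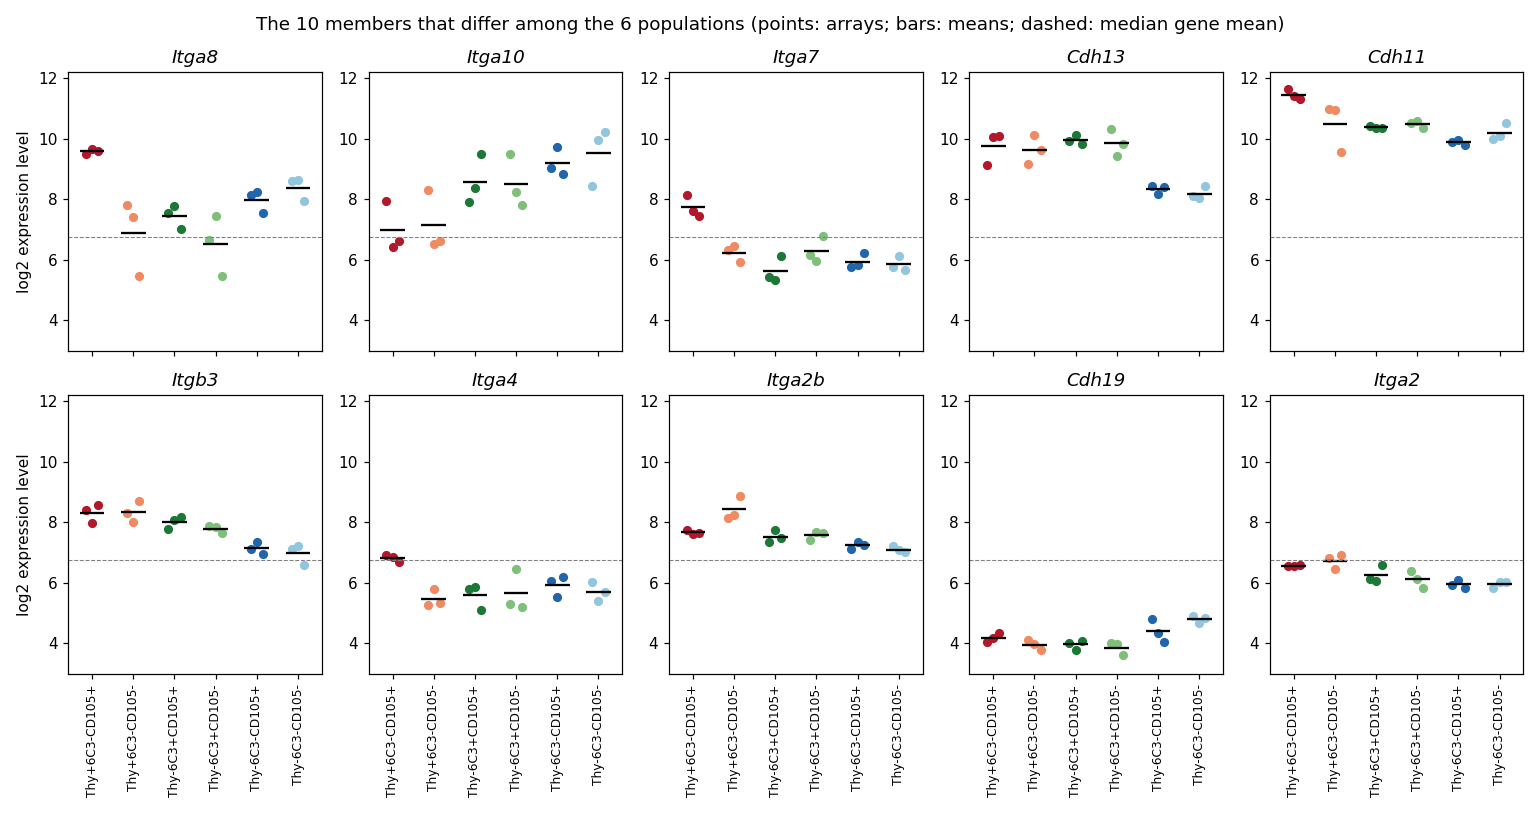
Log2 expression level on each array (points) and population means (bars) for the 10 integrin and cadherin genes past the F-test, by population, with the median gene mean dashed. All 3 Thy+6C3-CD105+ arrays stand above every other neonatal array for Itga8, Itga7, Itga4 and Cdh11, and the Thy-6C3- arrays stand below all others for Cdh13.

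Itga8 had the widest range of population means, 3.07. It encodes the alpha subunit of an RGD-binding integrin whose ligand nephronectin is known from kidney development, and it is also known from smooth muscle and mesenchyme. Levels were 9.47, 9.67 and 9.60 on the Thy+6C3-CD105+ arrays, against 7.80, 7.41 and 5.46 on the Thy+6C3-CD105- arrays. The groups do not overlap, and the CD105+ arrays lie close together while the doubtful CD105- array is the lowest of the other 3. Itga8 was 2.69 ± 0.50 higher on the log2 scale, or 6.45-fold, in the CD105+ cells (adjusted p = 0.0108), and 1.97 higher without the doubtful array (adjusted p = 0.0428). With the mean of its probe sets the difference was 1.63 (adjusted p = 0.00914). The call was lost in 3 of 15 other settings, with adjusted p up to 0.101. These were the fit of only the populations compared and the fits without the second or the third Thy+6C3-CD105+ array. Among Thy- cells it was 7.55, 7.77 and 7.0 in Thy-6C3+CD105+ against 6.65, 7.44 and 5.45 in Thy-6C3+CD105-. Those groups overlap. The Thy-6C3-CD105+ arrays had 8.14, 8.23 and 7.53 and the Thy-6C3-CD105- arrays 8.59, 8.62 and 7.94, which also overlap, and neither CD105 step in Thy- cells passed.

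Against Thy- cells, Itga8 differed by 1.62 ± 0.51 in the CD105+ pair (adjusted p = 0.0676) and fell by 1.49 in the CD105- pair (SE 0.50, adjusted p = 0.0491). Without the doubtful array the second value was -0.77 (adjusted p = 0.254), and it also missed the threshold on leaving out any single Thy-6C3-CD105- array (adjusted p between 0.0739 and 0.128). With the arrays blocked by poly-A control level it was -1.44 (adjusted p = 0.0612), and with the mean of all probe sets -0.80 (adjusted p = 0.0689). The difference between the 2 Thy steps, 3.11 ± 0.71, did not pass as an interaction (adjusted p = 0.0818). A second, dim Itga8 probe set with a mean level of 4.03 gave 0.57 for the CD105 step in Thy+6C3- cells and did not pass.

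Itga7 was another gene of the Thy+6C3-CD105+ population. It encodes a laminin-binding alpha subunit known from skeletal and smooth muscle. Its levels there were 8.15, 7.62 and 7.46, against 6.31, 6.44 and 5.94 in Thy+6C3-CD105- cells. The Thy-6C3-CD105+ arrays had 5.77, 5.84 and 6.21, and the remaining populations lay between 5.33 and 6.78. All 3 Thy+6C3-CD105+ arrays thus stood above every other neonatal array. The CD105 step in Thy+6C3- cells was 1.51 ± 0.27 (adjusted p = 0.00669) and the Thy step in 6C3-CD105+ cells 1.80 ± 0.27, or 3.49-fold (adjusted p = 0.000249). Without the doubtful array the CD105 step was 1.36 (adjusted p = 0.0480).

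Itga4, which encodes the alpha 4 subunit that binds VCAM-1 and fibronectin, had the same population on top. It measured 6.92, 6.85 and 6.69 in Thy+6C3-CD105+ cells, against 5.27, 5.81 and 5.33 in Thy+6C3-CD105- cells. Every Thy- array lay below 6.69, the highest of them at 6.45. Itga4 was 1.35 ± 0.31 higher in the CD105+ cells (adjusted p = 0.0426), a call that was lost on leaving out any single Thy+6C3- array other than the second CD105- array, with adjusted p between 0.0505 and 0.175. It was also lost with values as deposited, with only these 6 arrays in the fit, and with the mean of all probe sets, where the change was 0.36 (adjusted p = 0.116). Of its 4 other, dimmer probe sets none passed in that step, with values between -0.27 and 0.59. Vcam1, the gene of its ligand, was also higher in the CD105+ cells, at a mean of 10.50 against 9.53 (log2 change 0.97 ± 0.19, adjusted p = 0.0191). A dimmer Itga4 probe set, with a mean of 4.62, gave 0.66 in the Thy step of CD105- cells. It passed among all probe sets (adjusted p = 0.0347), while the one used gave -0.23 and did not pass.

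Itga8, Itga7 and Itga4 were the 3 genes called in the CD105 step of Thy+6C3- cells, 6.52% of the families, all higher. Of all genes 1.02% were called in this step, 0.824% as higher. The median change of the 46 genes in this step was -0.07, against -0.08 for all genes, and the groups did not overlap for 12 of the 46 genes, 26.1%, against 24.8% of all genes. With only the 6 arrays of the populations compared in the fit, no gene of the families passed, while 1 to 6 passed when arrays were left out singly, with 1 left without the second or the third Thy+6C3-CD105+ array and 6 without the first Thy+6C3-CD105- array. Markers of pericytes and smooth muscle moved with this step. Of the 7 listed markers 4 were higher and none lower in the CD105+ cells, and their mean level was between 10.21 and 10.31 on the Thy+6C3-CD105+ arrays, against 8.23 to 8.30 on the Thy+6C3-CD105- arrays and 7.47 to 8.28 elsewhere. Rgs5, a pericyte marker, averaged 12.22 in the CD105+ cells against 8.59 in the CD105- cells. Of 7 endothelial markers 1 was called, Esam, with 8.31 in the CD105+ cells against 6.27 in the CD105- cells. Keratinocyte markers moved the other way, with a mean level of 5.04 to 5.12 against 6.14 to 6.87 and 3 of 6 lower. Of 6 blood markers only 1 was lower, Laptm5, which averaged 6.38 against 8.73. The blood list had a mean level of 5.36 to 5.83 against 6.14 to 6.64. The part of these cell types in the integrin differences was not tested.

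In the remaining CD105 steps no gene of the families passed, in Thy-6C3- cells (0.0055% of all genes called) or in Thy-6C3+ cells (0%), where limma gave an unadjusted p under 0.05 for 1 of the 46 genes each. Groups did not overlap for 3 and 1 of the 46 genes, against 6.33% and 6.21% of all genes. Neither interaction called any of them. Of all genes 0.269% passed for Thy and CD105 (0.242% as positive and 0.0275% as negative) and 0% for 6C3 and CD105. At an unadjusted p under 0.05 limma counted 12 of the 46 genes and 0. These counts use a looser threshold than the shares and cannot be set against them.

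**Figure D3:**
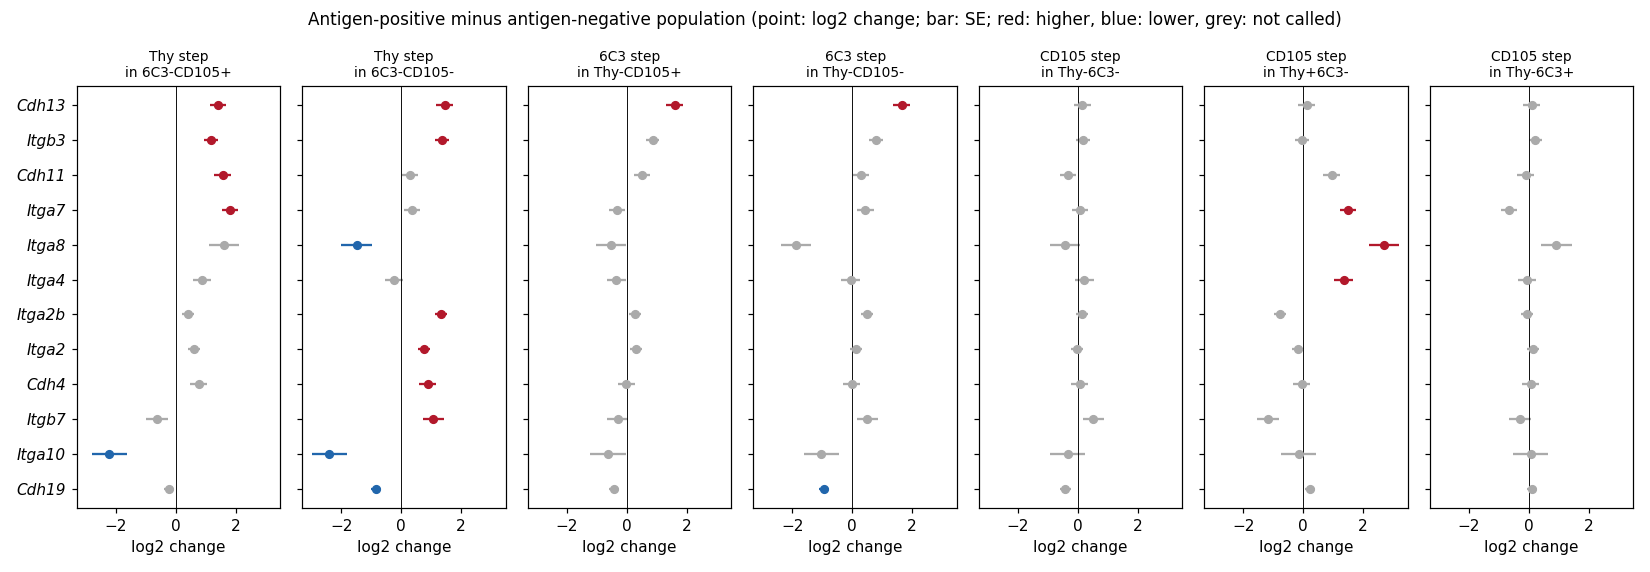
Log2 change (point) with its SE (bar) in the 7 single-antigen steps for the 12 genes called in at least 1 of them, antigen-positive minus antigen-negative, red where higher, blue where lower and grey where the test was not passed. Cdh13 is red in both Thy and both 6C3 steps, Itga10 is blue in both Thy steps, and the CD105 steps of Thy- cells are all grey.

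The Thy steps held most of the calls. In 6C3-CD105+ cells 5 of the 46 genes passed (10.9%, against 6.66% of all genes), 4 higher and 1 lower, where 4.03% and 2.63% of all genes were. In 6C3-CD105- cells 9 passed (19.6%, against 18% of all genes), 6 higher and 3 lower, where 10.5% and 7.45% of all genes were. The median change of the families was 0.14 in the CD105+ pair, against -0.02 for all genes, and 0.29 in the CD105- pair, against 0.13. Groups did not overlap for 18 of the 46 genes in the CD105+ pair and for 21 in the CD105- pair, 39.1% and 45.7%, against 26.2% and 34.7% of all genes. The share called in the CD105- pair is thus close to that of all genes. Without the doubtful array 6 genes were called in that pair, 5 of them among the 9 and the sixth Cdh11, and without the first or the third Thy-6C3-CD105- array 5 were called. Tendon and fibrous markers moved with the Thy steps, 5 of 6 higher in each, at a mean level of 10.90 to 11.28 on the Thy+ arrays against 8.82 to 9.36 on the Thy-6C3- arrays. Pericyte and smooth muscle markers did as well, 7 of 7 higher in the CD105+ pair, and 4 higher and 1 lower in the CD105- pair. Osteoblast markers moved down, 2 and 4 of 5 lower, with list medians of -1.40 and -2.80 and a mean level of 4.92 to 5.65 on the Thy+ arrays against 6.94 to 8.34 on the Thy-6C3- arrays. Of 7 endothelial markers 2 were higher in the CD105+ pair, Esam and Flt1, and none was called in the CD105- pair, and of 7 muscle markers 1 was higher in each. The part of these cell types in the integrin and cadherin differences was not tested.

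Itga10 was the gene of the families with the lowest values in the Thy steps. It encodes the collagen-binding alpha 10 subunit, known as the main collagen receptor of chondrocytes. Levels were 7.93, 6.42 and 6.60 in Thy+6C3-CD105+ cells, against 9.04, 9.73 and 8.84 in Thy-6C3-CD105+ cells. In the CD105- pair they were 8.29, 6.50 and 6.61 in Thy+6C3-CD105- cells, against 8.43, 9.96 and 10.22 in Thy-6C3-CD105- cells. The groups do not overlap in either pair, but the first array of each Thy+ population is over 1 log2 unit above the other 2. Those 2 arrays also had the highest differences between the 3′ and 5′ probe sets of the Gapdh control, a sign of RNA quality, with 2.69 and 2.82 against 1.52 to 2.41 on the other neonatal arrays. The part of RNA quality in the Itga10 levels was not tested. Itga10 fell by 2.22 in the CD105+ pair (SE 0.59, adjusted p = 0.0269) and fell by 2.40 in the CD105- pair (SE 0.59, adjusted p = 0.0111), or 4.66-fold and 5.29-fold. Without the doubtful array the change in the CD105- pair was -2.14 (adjusted p = 0.0489).

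The first of these Itga10 calls was lost on leaving out any single Thy-6C3-CD105+ array and also without the second or the third Thy+6C3-CD105+ array (adjusted p between 0.0544 and 0.138), and the second without the third Thy-6C3-CD105- array (adjusted p = 0.0618). In 6C3+ cells Itga10 lay between. Its mean was 8.58 ± 0.81 in the CD105+ and 8.51 ± 0.87 in the CD105- cells of that kind (SD, n = 3), and neither 6C3 step passed. Chondrocyte markers moved with it: all 8 listed markers fell in both Thy steps, and their mean level was 8.69 to 9.49 on the Thy+ arrays, against 12.23 to 12.48 on the Thy-6C3- arrays. Their part in the Itga10 result was not tested.

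Cdh13 separated the Thy-6C3- populations from all others. It encodes T-cadherin, which has no cytoplasmic domain, is held in the membrane by a lipid anchor and binds adiponectin and low-density lipoprotein. Among CD105+ cells the levels were 9.14, 10.04 and 10.08 on Thy+6C3- arrays, 9.92, 10.10 and 9.83 on Thy-6C3+ arrays, and 8.45, 8.18 and 8.39 on Thy-6C3- arrays. Among CD105- cells they were 9.16, 10.13 and 9.62 on Thy+6C3- arrays, 10.32, 9.42 and 9.80 on Thy-6C3+ arrays, and 8.09, 8.04 and 8.43 on Thy-6C3- arrays. All arrays of the 2 Thy-6C3- populations lay below all 12 others.

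The Thy steps of Cdh13 were 1.41 ± 0.28 in CD105+ cells (adjusted p = 0.00349) and 1.45 ± 0.28 in CD105- cells (adjusted p = 0.00233). The second of these was 0.92 and missed the threshold with the arrays brought to a common median only (adjusted p = 0.0719). Without the doubtful array that second step was 1.46 (adjusted p = 0.00652). With the mean of all probe sets the steps were 0.88 and 0.66 (adjusted p = 0.0181 and 0.0428). Its 6C3 steps were 1.61 ± 0.28 (adjusted p = 0.00506) and 1.66 ± 0.28 (adjusted p = 0.00202), or 3.05-fold and 3.16-fold. The Thy and 6C3 steps share the Thy-6C3- arrays and are not independent of each other. A second bright Cdh13 probe set, with a mean level of 8.87, gave 1.04 and 0.57 in the Thy steps and 1.31 and 1.06 in the 6C3 steps and passed in none. Chondrocyte markers moved with the 6C3 steps, 4 and 5 of 8 lower, with list medians of -1.88 and -2.30 and a mean level of 9.49 to 10.23 on the 6C3+ arrays against 12.23 to 12.48 on the Thy-6C3- arrays. Tendon and fibrous markers were higher, 1 and 3 of 6, and osteoblast markers lower, 1 and 2 of 5. Their part in the Cdh13 differences was not tested.

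Cdh13 was the only gene of the families called in the 6C3 step of Thy-CD105+ cells, where 1.36% of all genes passed, 0.561% as higher. In Thy-CD105- cells, where 2.74% passed, 1.24% as higher and 1.5% as lower, it was joined by Cdh19, which fell by 0.95 (SE 0.17, adjusted p = 0.00417). The median change of the 46 genes was 0.04 and 0.09 in these 6C3 steps, against 0.00 and 0.07 for all genes. Groups did not overlap for 5 of the genes in CD105+ and 8 in CD105- cells, 10.9% and 17.4%, against 16.3% and 17.6% of all genes.

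Cdh19, a cadherin known from Schwann cell precursors, was dim in all populations. Among CD105- cells it measured 4.11, 3.99 and 3.78 on Thy+6C3- arrays, 4.0, 3.98 and 3.60 on Thy-6C3+ arrays, and 4.89, 4.68 and 4.84 on Thy-6C3- arrays. The last 3 do not overlap the others, though every value lies far below the median gene. Cdh19 also fell in the Thy step of CD105- cells, by 0.85 (SE 0.17, adjusted p = 0.00353), and had no call in the CD105+ pairs. Without the doubtful array the change in that Thy step was -0.76 (adjusted p = 0.0197). Of 5 listed glial markers 3 were measured. Only S100b, which chondrocytes also express, was called in that Thy step, with a mean of 5.23 in Thy+6C3-CD105- cells against 10.13 in Thy-6C3-CD105- cells. The list median there was 0.69, so the other measured glial markers changed the other way, without a call. In the 6C3 step of CD105- cells 1 of the 3 was lower, with a list median of -0.78. The part of glial cells was not tested. With the arrays grouped by title, the 6C3 call of Cdh19 was lost (adjusted p = 0.212).

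Cdh11 was the brightest cadherin and rose in the Thy step of CD105+ cells. Levels were 11.63, 11.40 and 11.30 in Thy+6C3-CD105+ cells, against 9.87, 9.97 and 9.79 in Thy-6C3-CD105+ cells. These groups lie far apart, with a difference of 1.57 ± 0.28 (adjusted p = 0.00112). In the CD105- pair they were 10.98, 10.96 and 9.54 in Thy+6C3-CD105- cells, against 9.99, 10.10 and 10.50 in Thy-6C3-CD105- cells. There the doubtful array is the lowest of the 6, the groups overlap, and the difference of 0.30 did not pass (adjusted p = 0.457). Without that array it was 0.77 ± 0.16 and passed (adjusted p = 0.00540). The CD105 step in Thy+6C3- cells was 0.95 (adjusted p = 0.104), and 0.47 without that array (adjusted p = 0.344). Thy-6C3+ arrays lay between 10.33 and 10.59. A dimmer Cdh11 probe set, with a mean of 6.89, gave 1.89 in the Thy step of CD105+ cells. It passed there among all probe sets (adjusted p = 0.0426). In the Thy step of CD105- cells, with the doubtful array, it gave -0.39 and did not pass.

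Itgb3 rose in both Thy steps. It encodes beta 3, the partner of alpha V in the vitronectin and osteopontin receptor and of alpha IIb in the fibrinogen receptor of platelets. It measured 8.41, 7.96 and 8.58 in Thy+6C3-CD105+ cells, against 7.10, 7.36 and 6.96 in Thy-6C3-CD105+ cells. The CD105- pair had 8.32, 8.02 and 8.69 in Thy+6C3-CD105- cells, against 7.10, 7.22 and 6.60 in Thy-6C3-CD105- cells. Neither pair overlaps, and the changes were 1.17 ± 0.23 (adjusted p = 0.00323) and 1.37 ± 0.23 (adjusted p = 0.000730). Without the doubtful array the second change was 1.20 (adjusted p = 0.00342). The means of the 6C3+ populations lay in between, at 8.0 and 7.78, while their arrays, at 7.63 to 8.17, overlap those of Thy+ cells, and the 6C3 steps of 0.86 and 0.80 did not pass (adjusted p = 0.0916 and 0.0785). A second Itgb3 probe set, with a mean level of 5.86, gave 0.14 and 0.38 in the Thy steps and passed in neither. With the mean of the probe sets the steps were 0.66 and 0.87 (adjusted p = 0.0194 and 0.00199).

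Itga2b, whose product alpha IIb joins beta 3 on platelets and megakaryocytes, was highest in Thy+6C3-CD105- cells. It measured 8.13, 8.24 and 8.88 there, against 7.20, 7.08 and 7.0 in Thy-6C3-CD105- cells. All 3 Thy+6C3-CD105- arrays lie above every other neonatal array, the highest of which had 7.73. The Thy step in CD105- cells was 1.33 ± 0.20 (adjusted p = 0.000273), and 1.10 without the doubtful array (adjusted p = 0.000659). With the arrays brought to a common median only it was 0.86 (adjusted p = 0.00368). In the CD105+ pair the levels were 7.73, 7.62 and 7.63 in Thy+6C3-CD105+ cells, against 7.12, 7.36 and 7.25 in Thy-6C3-CD105+ cells. Those do not overlap either, but the difference of 0.42 did not pass (adjusted p = 0.320). Platelet markers did not move as one: of 6 listed, 1 rose and 1 fell in the Thy step of CD105- cells, Pf4 with a mean of 6.50 against 5.38 and Gp1bb with 5.81 against 8.22. Their mean level was 5.61 to 6.35 on every neonatal array, below the median gene.

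Smaller differences in the Thy step of CD105- cells concerned Itga2, Itgb7 and Cdh4. Itga2, a collagen-binding alpha subunit, had 6.81, 6.47 and 6.90 in Thy+6C3-CD105- cells, against 5.84, 6.02 and 6.04 in Thy-6C3-CD105- cells, a rise of 0.76 ± 0.20 (adjusted p = 0.0154). Cdh4, which encodes R-cadherin, had 7.27, 6.62 and 7.45 against 6.06, 6.62 and 6.00 (0.89 ± 0.28, adjusted p = 0.0368). Itgb7, whose product joins alpha 4 or alpha E on lymphocytes, had 6.51, 7.33 and 7.74 against 5.96, 6.41 and 5.99 (1.07 ± 0.36, adjusted p = 0.0477). The groups do not overlap for Itga2 and Itgb7, while for Cdh4 the second arrays of both populations nearly coincide. The doubtful array is the highest for all 3 genes, and without it they were 0.67, 0.72 and 0.80, with adjusted p = 0.0590, 0.144 and 0.199. Over 14 other settings each, the call was lost in 4 for Itga2, in 9 for Cdh4 and in 9 for Itgb7, among them the block by poly-A control level for Itgb7 (adjusted p = 0.0620). Dimmer Cdh4 probe sets, with means of 5.35 and 4.31, gave 1.06 and 0.25 in this step. Only the first of them passed among all probe sets (adjusted p = 0.0255). Blood and keratinocyte markers were also higher in Thy+6C3-CD105- cells in this step, 2 of 6 and 3 of 6 of them, with none lower. The blood list averaged 6.14 to 6.64 on the Thy+6C3-CD105- arrays, against 5.27 to 5.75 on the Thy-6C3-CD105- arrays, and the keratinocyte list 6.14 to 6.87 against 5.19 to 5.44. Their part in these differences was not tested.

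Matrix ligands of integrins changed in both directions in the Thy steps. Laminins moved one way: 3 of the 10 measured rose in the CD105+ pair and 5 in the CD105- pair, with none lower, against 4.03% and 10.5% of all genes called as higher, and median changes of 0.41 and 0.71, against -0.02 and 0.13 for all genes. Lama2, the laminin alpha 2 chain bound by the alpha 7 subunit, averaged 10.56 in Thy+6C3-CD105+ cells against 8.58 in Thy-6C3-CD105+ cells (1.98 ± 0.22, adjusted p = 1.1e-05), and the change in CD105- cells was 1.71 ± 0.22 (adjusted p = 5.2e-05). Lamb1 rose by 1.73 and 1.22 (adjusted p = 0.00323 and 0.0216). Of the 12 collagens measured, 3 rose and 3 fell in the CD105+ pair, and 2 rose and 3 fell in the CD105- pair. As lower, 2.63% and 7.45% of all genes were called in these pairs. The basement membrane collagen Col4a1 rose by 2.00 and 1.25, while the cartilage collagens Col2a1 and Col9a1 changed the other way. Col2a1 fell by 2.74 in the CD105+ pair and fell by 2.89 in the CD105- pair. Col9a1 fell by 1.76 and fell by 2.93.

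Among 18 other integrin ligands 5 rose and 6 fell in the Thy step of CD105+ cells, and 5 rose and 7 fell in that of CD105- cells, where 6.66% and 18% of all genes were called in either direction. Vtn, which encodes vitronectin, the ligand of alpha V with beta 3 or beta 5, averaged 7.35 in Thy+6C3-CD105+ cells against 5.26 in Thy-6C3-CD105+ cells (2.09 ± 0.34, adjusted p = 0.000505). Thbs1 and Edil3, whose products also carry an RGD motif, were lower: Thbs1 fell by 2.90 in CD105+ cells and fell by 3.27 in CD105- cells, and Edil3 fell by 2.51 and fell by 3.75. Icam1, a ligand of leukocyte integrins, fell by 1.75 in CD105- cells (adjusted p = 0.00137). In the 6C3 steps 2 of the 18 ligands rose and 1 fell in CD105+ cells, and 2 rose and 2 fell in CD105- cells. Of all genes 0.561% were called as higher and 0.797% as lower in CD105+ cells, and 1.24% and 1.5% in CD105- cells. Ecm1 rose by 0.99 and 1.51, and Ccn2 fell by 0.76 and fell by 1.15. Of the collagens, Col11a1 alone was called in a 6C3 step, where it fell by 1.07 in CD105- cells.

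**Figure D4:**
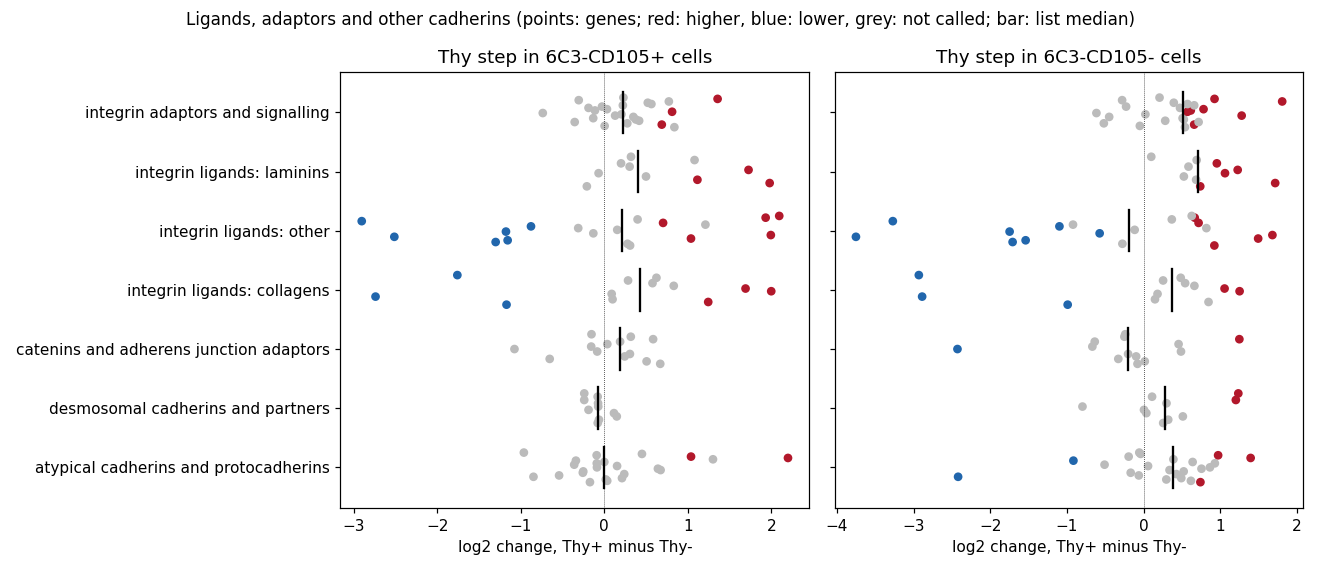
Log2 change, Thy+ minus Thy-, of each measured gene in 7 lists of ligands, adaptors and other cadherins (points, red where higher, blue where lower, grey where the test was not passed), with the list median as a bar, in CD105+ cells on the left and CD105- cells on the right. All points of called laminins and adaptors are red, the others of both lists are grey, and the other ligands reach from -3.75 for Edil3 to 2.09 for Vtn.

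In a list of adaptors, signalling genes and integrin-like genes, 3 of 24 rose in the Thy step of CD105+ cells and 7 in that of CD105- cells, and none fell, where 4.03% and 10.5% of all genes were called as higher. The list medians were 0.23 and 0.51, against -0.02 and 0.13 for all genes. Vcl, which encodes vinculin, the actin linker of both adhesion types, averaged 11.12 in Thy+6C3-CD105+ cells against 9.76 in Thy-6C3-CD105+ cells (1.36 ± 0.15, adjusted p = 1.5e-05) and rose by 0.92 ± 0.15 in CD105- cells (adjusted p = 0.000667). Tns1, which encodes tensin 1, averaged 10.79 in Thy+6C3-CD105- cells against 8.98 in Thy-6C3-CD105- cells (1.81 ± 0.31, adjusted p = 0.000892). Vcl was also called in the 6C3 step of CD105+ cells, 0.87 ± 0.15 (adjusted p = 0.00541). Itgbl1 of the same list, which encodes a secreted integrin-like protein and no adaptor, was called in the 6C3 step of CD105- cells, 1.0 ± 0.24 (adjusted p = 0.0325).

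The partners of the cadherins held 4 calls in the Thy steps, all in CD105- cells. In the Thy step of CD105+ cells 0 of 13 catenins and junction adaptors and 0 of 10 desmosomal genes passed in limma. Of all genes 6.66% were called there. At an unadjusted p under 0.05 limma counted 5 and 1 of them, without a share of all genes at that threshold. In CD105- cells 2 of each list passed, 15.4% and 20%, close to the 18% of all genes. Of the junction genes Jup, which encodes plakoglobin, rose by 1.25 ± 0.26 (adjusted p = 0.00392), and Ctnnal1, a catenin-like gene, fell by 2.43 (SE 0.47, adjusted p = 0.00220). Of the desmosomal genes, Pkp3 and Pkp1, which encode plakophilins, rose by 1.23 and 1.20 in the same step (adjusted p = 0.0229 and 0.0292), beside the keratinocyte markers described above. Of 23 atypical cadherins and protocadherins, 2 rose in CD105+ cells, and 3 rose and 2 fell in CD105- cells, 8.7% and 21.7%, close to the 6.66% and 18% of all genes. Pcdh19 had 8.56 in Thy+6C3-CD105+ cells against 6.36 in Thy-6C3-CD105+ cells (2.20 ± 0.36, adjusted p = 0.000627) and rose by 1.39 ± 0.36 in CD105- cells (adjusted p = 0.0150). Clstn2 fell by 2.42 in CD105- cells (SE 0.50, adjusted p = 0.00375).

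The remaining 34 genes passed neither the F-test nor a step with the probe set used. Above the median gene these were Itga1, Itga3, Itga6, Itga9 and Itgav, with population means spread over 0.53 to 1.21, Itgb1 and Itgb5, and Cdh2, which encodes N-cadherin. Cdh2 had a spread of 1.74, with 7.73, 7.91 and 8.15 in Thy+6C3-CD105+ cells against 6.64, 6.71 and 5.25 in Thy-6C3-CD105+ cells, and the difference of 1.74 ± 0.61 did not pass (adjusted p = 0.118). A second, slightly dimmer Cdh2 probe set gave 1.0 in that step and passed among all probe sets (adjusted p = 0.0246). A dimmer Itga3 probe set, with a mean of 5.92, gave 0.81 in the Thy step of CD105- cells. It passed among all probe sets (adjusted p = 0.0285), while the one used gave 0.70 and did not pass. Itga9, which binds tenascin, had 5.50 and 5.70 on the third, doubtful, and second Thy+6C3-CD105- arrays and 5.72 on the third Thy-6C3+CD105- array, against 6.19 or more elsewhere. Cdh2 had 5.16 on the doubtful array, 5.25 on the third Thy-6C3-CD105+ array and 5.44 on the third Thy-6C3+CD105- array, against 6.49 or more elsewhere.

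Below the median gene stood 16 cadherins, 5 alpha and 5 beta subunits. They include the leukocyte subunits Itgal, Itgam, Itgax, Itgae and Itgb2, the epithelial Itgb4 and Itgb6, the endothelial Cdh5 and the epithelial Cdh1 and Cdh16. Their means lay between 3.26 and 6.34. The probe sets of Cdh6 disagreed. The one used, with a mean of 6.06, gave 0.43 and did not pass in the Thy step of CD105+ cells, while the dimmer one, with a mean of 4.98, gave 1.88 (adjusted p = 4.6e-05 over all probe sets). The 2 Cdh6 probe sets also disagree in the CD105 step of Thy+6C3- cells, with -0.08 and 1.61. The dimmer one passed in that step (adjusted p = 0.00102) and in the F-test (adjusted p = 4.6e-05), both over all probe sets. Itga5, the fibronectin-binding subunit, had 4 probe sets with Thy steps between -1.25 and 0.14 in CD105+ cells and between -1.78 and 0.36 in CD105- cells, none of them called.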

How the data were processed

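Gene expression was measured on 19 Affymetrix mouse arrays, 18 neonatal and 1 adult. Per the labels' protocols, RNA was amplified through repeated rounds before hybridization. The log2 values for 45101 probe sets are as the authors deposited them. The method behind these values was not given in the sources used here. Deposited array medians lay between 5.60 and 6.02, and as they differed by more than 0.1 the 19 arrays were quantile normalized. No array pair was identical.

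Of the probe sets, 64 were controls, 34945 had 1 gene symbol in the platform annotation, 932 several and 9160 none. No filter on low values was used. limma 3.58.1 in R 4.3.3 fitted 1 mean per population over the 18 neonatal arrays (12 residual degrees of freedom, prior 5.38, eBayes with trend), with two-sided tests of 7 steps, 2 interactions and a moderated F-test. The threshold was an adjusted p of 0.05 (Benjamini-Hochberg, over all genes). The adult array was in the normalization and in no test. Arrays were grouped by the population field.

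The genes, lists and cell type markers were chosen with earlier results of these data known. Of other lists, up to 3 called genes per list and step with the largest change were named, Vcam1 and Rgs5 among them. The fit was tested on simulated arrays. Poly-A control levels split the arrays at 6.20 into 11 high and 7 low arrays, a split found in the data. Within a set each comparison has 1 or 2 arrays a population, so no test was made there, and the set was used as a block. Alternatives changed the scaling, probe sets, filter on dim genes, array weights, blocks, grouping and the arrays used. Python 3.11.15 with pandas 2.3.3, numpy 2.4.6 and matplotlib 3.10.9 was used for summaries and figures.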

Additional observations from a re-analysis of the deposited data

Results flagged for a closer look

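Genes were flagged in this paragraph where an interaction passed, or where both steps had no overlap and opposite signs. The lack of overlap given here therefore follows from the rule. Of all genes, 26.2% and 34.7% did not overlap in the Thy steps of CD105+ and CD105- cells. Itga8 showed opposite differences in the 2 Thy steps: 1.62 in CD105+ cells and -1.49 in CD105- cells, Thy+ minus Thy-. Every array of one group lay on its own side of the other group in each pair. The interaction of 3.11 did not pass in limma (adjusted p = 0.0818). Itgb7 showed the reverse order, -0.61 in CD105+ cells and 1.07 in CD105- cells, likewise without overlap, and its interaction of -1.69 did not pass (adjusted p = 0.206). The first of these Itgb7 steps was not called. Its levels were 6.04, 6.03 and 6.02 in Thy+6C3-CD105+ cells, against 6.12, 6.38 and 7.43 in Thy-6C3-CD105+ cells. Without the doubtful array the second step was 0.80 (adjusted p = 0.199).

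The adult array, which is in no comparison, had a Cdh19 level of 9.03, against 3.60 to 4.89 on the 18 neonatal arrays, 4.14 above the highest of them. On the same array S100b was 11.34 against 4.86 to 10.46, Sox10 6.68 against 5.78 to 8.75, and Mbp 6.12 against 5.90 to 7.63 on the neonatal arrays. It is a single array with unsettled tissue labels, and the part of glial cells was not tested.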

How the results depend on the processing

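Over 28 other settings, 9 of the 20 calls in the steps were kept in every one that gave a value, 11 were lost in at least 1, and 0 changed direction. With array weights 12 of the 46 genes passed in the Thy step of CD105+ cells, 3 in the 6C3 step of CD105+ cells, 13 in the CD105 step of Thy+6C3- cells and 5 in the interaction of Thy and CD105. With the mean of all probe sets of a gene, 8 passed in the Thy step of CD105+ cells. Among genes at or above the median gene only, 6 passed the F-test and 1 the CD105 step of Thy+6C3- cells, since dim genes were not tested. With only the populations compared in the fit, 9 passed in the Thy step of CD105+ cells, 5 in that of CD105- cells and 0 in the CD105 step of Thy+6C3- cells. With values as deposited 1, and with a common median only 2, passed in the interaction of Thy and CD105. With the poly-A set as a block 9 passed in the Thy step of CD105+ cells, and with grouping by title 1 passed in the 6C3 step of CD105- cells. Counts in this section stand without the share of all genes called under the same setting. Whether the families shifted more than other genes is therefore not shown. The cause of these shifts was not tested.

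Taken over all populations, replicate numbers showed little pairing of the arrays. Deviations of same-numbered arrays correlated at a median of 0.03 over 45 pairs, against 0.01 for 90 pairs of different number. Single pairs ranged from -0.56 to 0.67 and from -0.65 to 0.63. These medians thus do not decide whether arrays of particular populations were paired. With the replicate block 10 genes passed the F-test, 7 and 10 the Thy steps of CD105+ and CD105- cells, 1 and 3 the 6C3 steps, 3 the CD105 step of Thy+6C3- cells and 1 the interaction of Thy and CD105.

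Leaving out arrays singly gave 7 to 11 genes for the F-test, 4 to 5 and 5 to 9 for the Thy steps of CD105+ and CD105- cells, 1 to 1 and 2 to 3 for the 6C3 steps, 1 to 6 for the CD105 step of Thy+6C3- cells and 0 to 1 for the interaction of Thy and CD105, where the 1 came without the first Thy+6C3-CD105- array. The other CD105 steps and the interaction of 6C3 and CD105 had 0 in every setting. An alternative chosen after seeing the data left out both the doubtful CD105- array and the second Thy-6C3+CD105- array, whose deposited median deviates. It gave 9 in the Thy step of CD105+ cells, 2 and 4 in the 6C3 steps, and 1 in the interaction of Thy and CD105. Low signal limits the 23 genes that lie below the median gene mean on every array.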

Other observations

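On the adult array 3 of the 46 genes lay above all 18 neonatal arrays, 6.52% against 11.7% of all genes, and 8 lay below all of them, 17.4% against 14.2% of all genes. Besides Cdh19, the genes above were Cdh8 and Cdh26, by 0.07 and 0.03. The T-cadherin gene Cdh13 was 5.38 on the adult array, 2.65 below its lowest neonatal array. N-cadherin gene Cdh2 was 4.11 against 5.16 to 8.15, the common beta subunit gene Itgb1 8.45 against 9.12 to 10.71, and R-cadherin gene Cdh4 5.40 against 6.00 to 7.45. Itga1, Itga4, Cdh10 and Cdh22 were also below all neonatal arrays, by 0.30 at most. Tissue, age and population differ together between this array and the others and cannot be told apart.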
